A study of Homo sapiens with 16 samples.

Results

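The comparison set Rh30 cells treated with dTAG47 for 2 h against Rh30 cells given the solvent DMSO, in the experiment labelled 6086. It took in all 56949 regions of that experiment's raw count table, of 97793 regions in the count tables of the series, and its 4 libraries, 2 in each group. Rh30 is an established human line of alveolar rhabdomyosarcoma, a tumour with features of muscle precursors. Every library, control or treated, came from Rh30 cells carrying PAX3-FOXO1 tagged with FKBP, and treated cells received 500 nM dTAG47. The series holds 16 libraries in 2 experiments. Experiment 6086 also sampled 4 and 24 h of dTAG47, and experiment 6211 sampled 0.5, 1 and 2 h with DMSO libraries of its own. The sources used here do not give how long control cells were kept in DMSO or whether the tagged cells are a single clone. Because the controls were tagged cells without the degrader, and no untagged cells with it were analysed here, degradation of the fusion cannot be told apart from other actions of dTAG47.

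PAX3-FOXO1 arises from a chromosome translocation that joins the DNA-binding part of the muscle transcription factor PAX3 to the activation domain of FOXO1. It is known to bind mostly away from promoters, at enhancers that it shares with the muscle factors MYOD1 and MYOG, and it drives this tumour type. A degrader such as dTAG47 brings an FKBP-tagged protein to a ubiquitin ligase, so that the protein is destroyed within hours without a change to its gene. ATAC-seq reads out which stretches of DNA are open to an inserted transposase, and regulatory DNA bound by transcription factors is usually open. In bulk libraries, opening in fewer cells and weaker opening in every cell cannot be told apart.

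Losses outnumbered gains after 2 h, and they were deeper. Accessibility was lower in 2418 regions and higher in 557 of the 56945 tested, which is 4.25% and 0.978% of them. Lower regions had a median change of -0.51 on the log2 scale and higher regions one of 0.34, against 0.00 for all tested. Among the lower regions 949 changed at least 1.5-fold, 194 at least 2-fold, 17 at least 3-fold and 1 at least 4-fold. Among the higher regions 33 changed at least 1.5-fold and 2 at least 2-fold. The fit was edgeR's quasi-likelihood test on raw counts with Benjamini-Hochberg adjustment, called at an adjusted p under 0.05. It found 5441 lower and 3883 higher regions at an unadjusted p under 0.05.

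The number of gains depended far more on single libraries and on the tool than the number of losses. DESeq2 called 1328 lower and 70 higher regions, so that 5.01% of its calls were higher, against 18.7% with edgeR. The authors' deposited table called the same numbers, 2.33% and 0.123% of its regions. At the regions ranked by fold or CPM below, its adjusted p was also that of DESeq2, so it is no separate support. The calls of the authors' deposited table made up 54.9% of the lower and 12.6% of the higher edgeR calls. Without 2 h library A, 1410 regions were lower and 150 higher, and without 2 h library B, 1779 and 217. The counts were 1767 and 347 without DMSO library A, the shallowest of the 4, and 2761 and 941 without DMSO library B. DMSO library A held 18038062 reads in regions and the other 3 held 23627931 to 25803905. The labels do not say that the libraries of a group came from separate cultures, so every p-value measures only the spread between libraries.

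The lower regions together took 5.33% and 5.03% of the normalised reads in the DMSO libraries and 3.74% and 3.85% in the 2 h libraries. In the higher regions these shares were 1.36% and 1.41% in DMSO and 1.70% and 1.67% at 2 h. In all 2418 lower regions both 2 h libraries lay below both DMSO libraries, and in 556 of the 557 higher regions both lay above. Among all regions tested, 22.7% had both 2 h libraries below and 21.4% had both above. The calls were made on these same libraries, so separate groups at called regions are largely built in and are no further support.

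**Figure D1:**
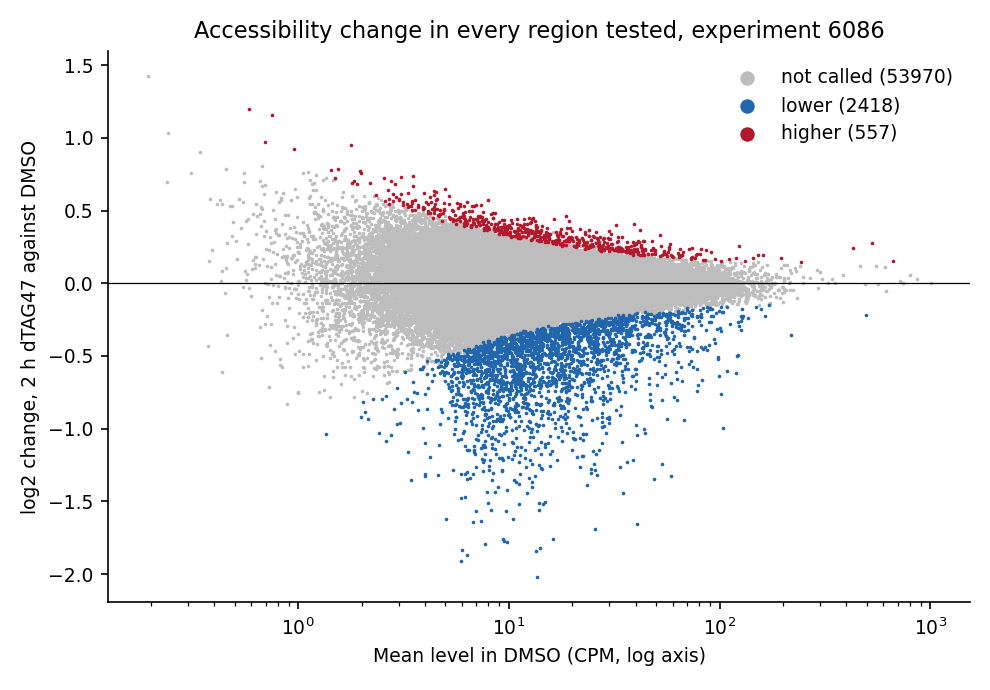
Each point is 1 of the 56945 regions tested, with the mean level of the 2 DMSO libraries in CPM (counts scaled to the same library total, log axis) against the log2 change at 2 h. Lower regions (blue, 2418) reach down to -2.02, while higher regions (red, 557) hug the upper edge of the cloud.

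The share of regions called lower was largest at middle to high DMSO levels in CPM. Regions were ranked by DMSO level and split into 5 bins of near equal size. In the bin of lowest level 0.843% were lower at 2 h, followed by 3.44%, 5.49%, 6.08% and 5.37% in the bins above it. The share that was higher ran from 0.659% to 1.45% and was largest in the top bin. In both directions the median change of the called regions was smaller where the level was higher: from -0.70 to -0.35 for the lower regions and from 0.56 to 0.23 for the higher ones, bottom bin to top. Counts are fewest in the bottom bin, where only larger changes pass the test. The same DMSO libraries set both the bins and the change, and the level is not divided by width. The shares are therefore a description of the calls and no result about accessibility. The lower regions had a median width of 390.5 bp and the higher ones 427 bp, against 320 bp for all. Per kilobase, their median DMSO levels were 39.0 and 31.9 CPM, against 33.6 CPM for all regions.

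Lower regions were found on every autosome and on X. Their share of the regions tested was largest on chromosome 9 (159 of 2882, 5.52%) and smallest on chromosome 19 (53 of 2354, 2.25%). Higher regions made up the largest share on chromosome 20 (39 of 2006, 1.94%) and the smallest on chromosome 13 (2 of 996, 0.201%). A short part of chromosome 12, from 57 to 59 Mb, held 17 higher and 8 lower regions among 213, so 7.98% of its regions were higher. There the DMSO libraries also differed from each other, with a median log2 difference of -0.09 for B minus A, against -0.01 for the 2 h libraries. The part played by that difference was not tested. Without these 2 Mb, 2410 lower and 540 higher regions were left.

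A called region was eligible for naming where the mean count over the 4 libraries was at least 30 and the 2 h libraries did not overlap the DMSO libraries. This left 2417 lower and 553 higher regions, so separate groups at a named region are no further support. The 4 gains left out were 3 with a lower mean count, among them both that gained at least 2-fold, and 1 region near the start of chromosome 1. Its groups overlapped, and its gain in CPM would have ranked second, as was noted after its values were seen. Named regions are given with hg19 coordinates as the deposited table has them, and the build is taken from the submitters' processing notes. The gene names come from general knowledge of the hg19 gene map and were not looked up in an annotation. A gene near a region is a landmark and has not been shown to be its target. Levels are CPM, the counts of a region scaled to the same normalised total in every library, and are not divided by width. The standard error (SE) of a log2 change is its absolute value over the root of the edgeR F statistic.

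The deepest loss lay downstream of PTPRT, which encodes a receptor tyrosine phosphatase expressed mainly in the nervous system (chr20:40621138-40621554). Its level was 13.5 and 13.8 CPM in the DMSO libraries and 3.49 and 3.25 CPM in the 2 h libraries. The 2 h mean was 24.6% of the DMSO mean, and the gap was far larger than the spread within either group. The log2 change was -2.02 ± 0.12 (SE), with an adjusted p of 6.11e-14 by edgeR. At 4 h the levels were 2.65 and 2.28 CPM and at 24 h 2.70 and 2.82 CPM. The difference between 24 h and 2 h did not pass the test (log2 -0.29, adjusted p = 0.179).

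Another of the deepest losses lay inside KCNIP1, which encodes a protein that binds and regulates A-type potassium channels (chr5:170008229-170008611). DMSO libraries had 15.3 and 12.9 CPM, the 2 h libraries 3.57 and 4.35 CPM, the 4 h libraries 2.00 and 2.16 CPM and the 24 h libraries 0.954 and 0.824 CPM. Both libraries of each later group lay below both of the group before. At 2 h the log2 change was -1.82 ± 0.13 (adjusted p = 1.61e-12). The difference between 4 h and 2 h was -0.93 (adjusted p = 0.0322). It was the only one of the 12 deepest losses to pass the threshold in that comparison, and whether it differed there from the other regions was not tested. At 24 h it lay -2.15 from its level at 2 h on the log2 scale (adjusted p = 8.22e-10).

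The region within NELL1, which encodes a secreted protein involved in bone formation, had the highest CPM of these 12 (chr11:20791814-20792427). It had 25.9 and 25.5 CPM in DMSO and 7.34 and 8.57 CPM at 2 h, a log2 change of -1.69 ± 0.09 (adjusted p = 1.4e-14). Its DMSO libraries differed by less than 1 CPM. A region within IRAK3, which encodes a kinase-like inhibitor of Toll-like receptor signalling, had 14.6 and 12.2 CPM in DMSO and 3.57 and 3.84 CPM at 2 h (chr12:66634884-66635285; log2 -1.84 ± 0.13, adjusted p = 3.36e-12). Its 24 h levels were 1.15 and 1.58 CPM (log2 against 2 h -1.43, adjusted p = 6.67e-07). Of these 12, 11 were called lower at 24 h than at 2 h. Upstream of SLC22A11, an organic anion transporter gene, DMSO levels of 16.9 and 15.4 CPM compared with 4.48 and 4.98 CPM at 2 h (chr11:64297123-64297526; log2 -1.76 ± 0.12, adjusted p = 4.67e-13).

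The other 7 of the deepest losses were weaker regions, with DMSO means of 5.93 to 9.83 CPM. Within MYZAP, which encodes a protein of heart muscle cell junctions, levels were 6.11 and 5.75 CPM in DMSO and 1.54 and 1.60 CPM at 2 h (chr15:57944755-57944919; log2 -1.91 ± 0.18). Within ARID4B, which encodes a subunit of a histone deacetylase complex, they were 9.52 and 9.23 CPM in DMSO and 2.95 and 2.57 CPM at 2 h (chr1:235344341-235344631; log2 -1.76 ± 0.15). The DMSO and treated libraries lay well apart at both. The remaining 5 lay between PAQR3 and NAA11 on chromosome 4 (log2 -1.87), between ACSM1 and THUMPD1 on chromosome 16 (-1.83), between SPHKAP and PID1 on chromosome 2 (-1.79), between FCRLB and DUSP12 on chromosome 1 (-1.78) and beyond FOXL1 on chromosome 16 (-1.77). For these 7 regions the adjusted p ran from 1.65e-10 to 5.32e-08 by edgeR.

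All 12 deepest losses were also called by DESeq2, in the authors' deposited table and with any 1 of the 4 libraries left out. The deposited table and the DESeq2 fit gave the same adjusted p at each, so they count as 1 result. Lower levels at 24 h than at 2 h were called in 11 of the 12, the PTPRT region being the exception. Among all regions tested, 17.6% were lower and 12.8% higher at 24 h than at 2 h.

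**Figure D2:**
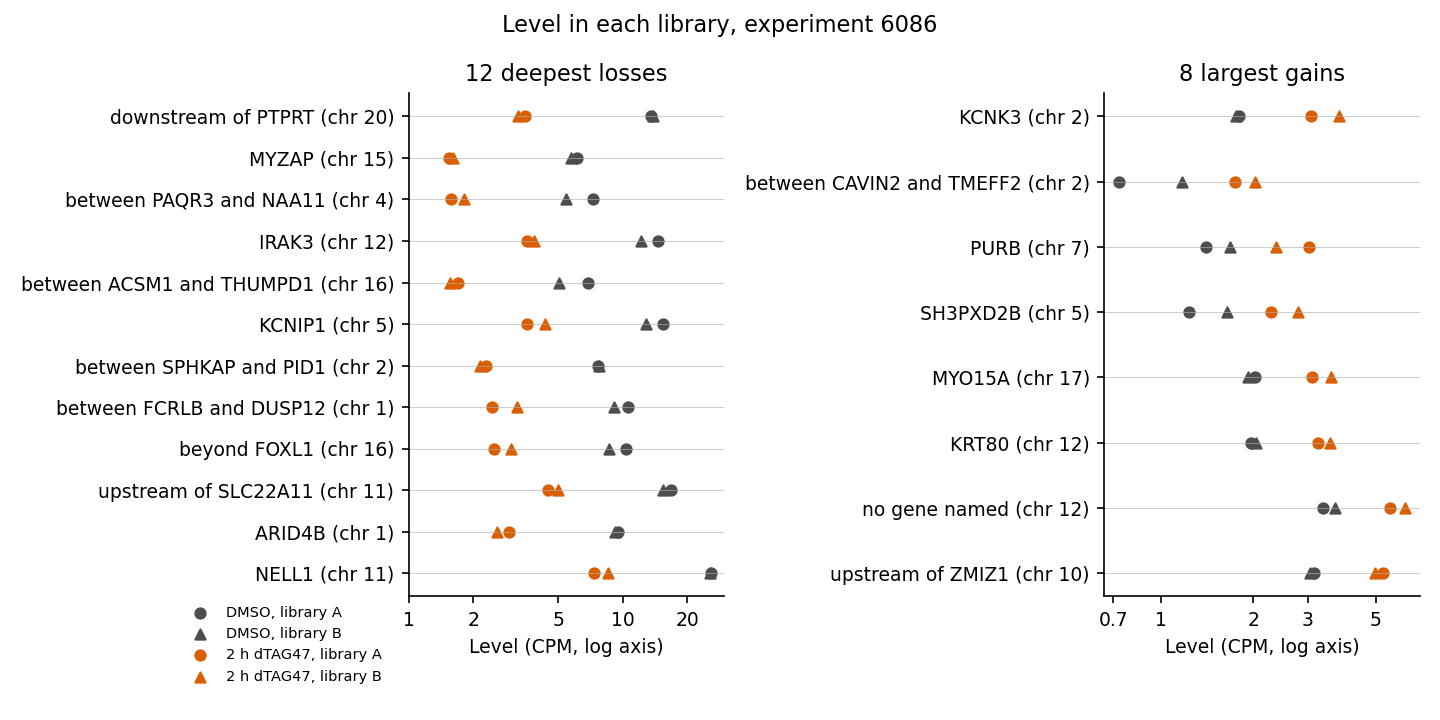
Levels in each of the 4 libraries (CPM, log axis) are shown for the 12 deepest losses and the 8 largest gains, with DMSO in grey and 2 h of dTAG47 in orange. The naming rule required the orange and grey symbols of a row to be separate. In DMSO the gains lie at 0.951 to 3.52 CPM and the losses at 5.93 to 25.7 CPM, while the orange symbols of both cover similar levels.

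Among the regions eligible for naming, the 8 largest gains by fold were narrow and faint, 101 to 172 bp wide with DMSO means of 0.951 to 3.52 CPM. The first lay within KCNK3, which encodes a background potassium channel (chr2:26947472-26947586). It had 1.79 and 1.76 CPM in DMSO and 3.07 and 3.80 CPM at 2 h, a log2 change of 0.95 ± 0.19 (edgeR adjusted p = 0.00112). Without 2 h library B its adjusted p was 0.0574. The next lay between CAVIN2 and TMEFF2 on chromosome 2, with 0.728 and 1.17 CPM in DMSO and 1.74 and 2.03 CPM at 2 h (log2 0.93 ± 0.27, adjusted p = 0.032), and it lost its call without either 2 h library and without DMSO library A.

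Gains of 0.73 to 0.78 on the log2 scale were measured within PURB, which encodes a repressor of smooth muscle genes, within SH3PXD2B, which encodes an adaptor of podosomes, within MYO15A, an unconventional myosin gene, within KRT80, a keratin gene, at a region of chromosome 12 with no gene named here, and upstream of ZMIZ1, which encodes a transcriptional coactivator. The last had 3.14 and 3.05 CPM in DMSO and 5.27 and 4.98 CPM at 2 h (chr10:80715055-80715211; log2 0.73 ± 0.15, adjusted p = 0.00134). Later levels were 4.82 and 5.32 CPM at 4 h and 5.16 and 5.32 CPM at 24 h. Of the 8 gains, 6 lost their call without some library, with highest adjusted p-values of 0.265 at the CAVIN2 to TMEFF2 region, 0.408 at PURB, 0.268 at SH3PXD2B, 0.12 at MYO15A and 0.113 at KRT80. Of the 8, 3 were called by DESeq2, and the authors' deposited table held the same adjusted p-values. At 24 h 4 were lower than at 2 h. KRT80 was one of these: it had 1.96 and 2.03 CPM in DMSO, 3.24 and 3.55 CPM at 2 h and 1.74 and 1.96 CPM at 24 h (log2 against 2 h -0.87, adjusted p = 0.000232).

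Ranked by the difference in CPM instead of by fold, the losses led to wide regions of 911 to 2778 bp with high CPM. DNA copy number was not measured here. The region at R3HDM2, which encodes an RNA-binding protein, had 510.6 and 481.7 CPM in DMSO and 419.9 and 430.9 CPM at 2 h (chr12:57665667-57667687). The log2 change was -0.22 ± 0.04 (adjusted p = 0.000129). This region lies in the part of chromosome 12 in which the DMSO libraries differed. The region within SPG7, a mitochondrial protease gene, had 108.1 and 99.3 CPM in DMSO and 50.3 and 53.4 CPM at 2 h (chr16:89608968-89609878; log2 -0.997 ± 0.057, adjusted p = 1.7e-14). It fell further at 4 h, to 41.6 and 38.4 CPM (log2 against 2 h -0.37, adjusted p = 0.00786), and at 24 h, to 31.3 and 29.7 CPM (log2 against 2 h -0.76).

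Close to FGF8, a growth factor gene of the developing embryo, the region chr10:103529965-103531230 had 108.2 and 108.7 CPM in DMSO and 71.7 and 71.4 CPM at 2 h. The libraries of each group were nearly equal, and the log2 change was -0.60 ± 0.05 (adjusted p = 5.64e-11). At 4 h it had 53.3 and 53.2 CPM (log2 against 2 h -0.43, adjusted p = 6.03e-05). Only this region and the one in SPG7 passed the threshold in that comparison among the 6. Between KCNS3 and RDH14 on chromosome 2, levels went from 106.7 and 97.1 CPM to 59.1 and 61.0 CPM (log2 -0.76 ± 0.05, adjusted p = 2.77e-12). Downstream of PREX1, which encodes an activator of the GTPase Rac, they went from 123.4 and 117.1 CPM to 79.5 and 77.1 CPM (chr20:47083789-47085185; log2 -0.62 ± 0.05, adjusted p = 2.01e-11). This was the only region of the 6 that was higher at 24 h than at 2 h: it had 94.8 and 96.7 CPM at 24 h, a log2 difference of 0.29 (adjusted p = 1.07e-05), still 0.33 below DMSO on the log2 scale. All 6 were called with any 1 library left out and by DESeq2.

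The largest gains in CPM were small in fold, from 0.14 to 0.27 on the log2 scale. In first place was a segment near the start of chromosome 1 known to resemble mitochondrial DNA, where reads from a near-identical copy cannot be told apart (chr1:569772-570031). It had 453.9 and 607.4 CPM in DMSO and 663.9 and 621.8 CPM at 2 h, so that 1 DMSO library lay close to the treated ones. Its log2 change was 0.27 ± 0.06 (adjusted p = 0.00561), it lost its call without DMSO library A (log2 0.08, adjusted p = 0.396) or without 2 h library A (adjusted p = 0.198), and its DESeq2 adjusted p was 0.694. The second among the regions eligible for naming was a repeat beside the centromere of chromosome 1, with the same limit on read placement, with 712.8 and 618.0 CPM in DMSO and 729.1 and 751.8 CPM at 2 h (log2 0.16 ± 0.04, adjusted p = 0.0245). Without DMSO library B its log2 change was 0.05 (adjusted p = 0.491). It also lost its call without 2 h library A (adjusted p = 0.106), without 2 h library B (adjusted p = 0.243) and with DESeq2 (adjusted p = 0.183). At 24 h it was below DMSO, with 584.5 and 580.6 CPM (log2 -0.19, adjusted p = 0.000677).

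Of these 6 gains, the one within LAMA5, which encodes a laminin chain of basement membranes, kept its call with any 1 library left out (chr20:60930567-60933806). It had 122.7 and 125.4 CPM in DMSO and 150.7 and 145.8 CPM at 2 h, a log2 change of 0.26 ± 0.05 (adjusted p = 0.000214). The groups were well apart. The regions at BRF1, a subunit gene of the RNA polymerase III machinery, upstream of VWA1 and at PDLIM7 had log2 changes of 0.14, 0.18 and 0.19. These 3 lost their calls without 2 h library A, and BRF1 and PDLIM7 also without DMSO library A, with highest adjusted p-values of 0.426, 0.318 and 0.386.

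Most called regions stood alone. When called regions of 1 direction with at most 50 kb between neighbours were joined, 1647 lower regions (68.1%) and 444 higher regions (79.7%) had no partner. At least 3 regions were joined in 73 stretches of lower regions, holding 251 regions, and in 11 stretches of higher regions, holding 37. The stretches with at least 5 lower regions, 8 in all, and with at least 4 higher regions, 4 in all, are described next, with open regions between them that were not called.

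The stretch with the most lower regions lay between CDC5L, a splicing factor gene, and SUPT3H, which encodes a subunit of a histone acetyltransferase complex (chr6:44621459-44681057). Of its 12 tested regions 7 were lower and the other 5 had log2 changes of -0.36 to -0.11. One region stood out: chr6:44628171-44628686 had 42.5 and 38.4 CPM in DMSO and 12.7 and 12.8 CPM at 2 h (log2 -1.66 ± 0.09, adjusted p = 1.65e-15). Its called neighbours changed by -0.59 to -0.24. The 7 regions summed to 337.7 and 303.8 CPM in DMSO and to 229.6 and 230.8 CPM at 2 h, and the sums at 24 h, 231.5 and 229.7 CPM, were close to those at 2 h.

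FGGY, which encodes a carbohydrate kinase, showed the same shape of 1 deep region among shallow ones. There 5 of 11 regions were lower (chr1:59833058-59948073), and chr1:59881186-59882151 went from 62.1 and 56.0 CPM to 22.8 and 24.1 CPM (log2 -1.33 ± 0.07, adjusted p = 1.65e-15). The other 4 changed by -0.51 to -0.30. Across LIPC, which encodes hepatic lipase, 5 of 9 regions were lower (chr15:58745684-58806448), with the deepest at -1.04 ± 0.09 and the others at -0.50 to -0.25.

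ASS1 encodes the enzyme that makes argininosuccinate for arginine synthesis, and 6 of the 7 regions tested there were lower (chr9:133336640-133356407). Here 2 regions were deep. The first went from 34.4 and 34.5 CPM to 16.4 and 15.9 CPM (log2 -1.09 ± 0.08, adjusted p = 1.14e-11), and the second from 46.0 and 42.9 CPM to 22.2 and 21.1 CPM (log2 -1.03 ± 0.07, adjusted p = 9.44e-13). The single region not called had a log2 change of -0.26 (adjusted p = 0.0948). The 6 lower regions summed to 142.3 and 140.6 CPM in DMSO and 83.6 and 80.2 CPM at 2 h.

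Around MYOD1, which encodes the transcription factor that specifies muscle cells, 5 of 15 regions were lower and all by modest amounts (chr11:17671003-17752900). The widest of them, upstream of the gene at chr11:17671003-17673780, had 227.7 and 209.4 CPM in DMSO and 169.7 and 171.1 CPM at 2 h (log2 -0.36 ± 0.04, adjusted p = 2.8e-07). The deepest lay just beyond the gene, with 64.0 and 57.2 CPM in DMSO and 43.7 and 44.3 CPM at 2 h (log2 -0.46 ± 0.06, adjusted p = 1.16e-06). The region over the start of MYOD1 was open in all 4 libraries, with 91.6 and 96.3 CPM in DMSO and 92.2 and 87.6 CPM at 2 h. Its groups overlapped, and its log2 change of -0.07 ± 0.05 did not pass the test (adjusted p = 0.572). MYOD1 is a defining marker of the muscle lineage of this tumour type, and other lineage markers were not looked up.

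A further 6 of 19 regions were lower from ANKRD11, a chromatin regulator gene, to SPG7 (chr16:89545006-89632634), with the SPG7 region given above as the deepest. Their sums went from 232.1 and 215.1 CPM in DMSO to 142.6 and 147.1 CPM at 2 h and on to 103.4 and 99.6 CPM at 24 h. Downstream of PREX1, 5 of 9 regions were lower, by -0.79 to -0.39, and their sums partly returned, from 140.0 and 136.0 CPM at 2 h to 167.7 and 173.6 CPM at 24 h, against 209.5 and 199.9 CPM in DMSO. Downstream of MN1, a gene for a transcriptional coregulator, 5 of 6 regions were lower, by -0.76 to -0.26. In none of the 8 stretches was any region higher, but only 0.978% of all regions tested were higher, so this adds little. Regions were also paired with 6211 by overlap, as described below, and 5.05% of all pairs were lower there. Counting every paired region of a stretch, 3 of 8 were lower in 6211 between CDC5L and SUPT3H. It was 2 of 10 from ANKRD11 to SPG7, 2 of 6 at FGGY, 2 of 5 at LIPC and 1 of 5 at ASS1. Downstream of PREX1 and of MN1 it was 1 of 4 each, and around MYOD1 0 of 1. These counts include regions that were not called in 6086, so they are not shares of the losses. The pair around MYOD1 was such a region (log2 -0.06 in 6086), and the lower regions there had no partner. The 2 deep regions at ASS1 had no partner.

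**Figure D3:**
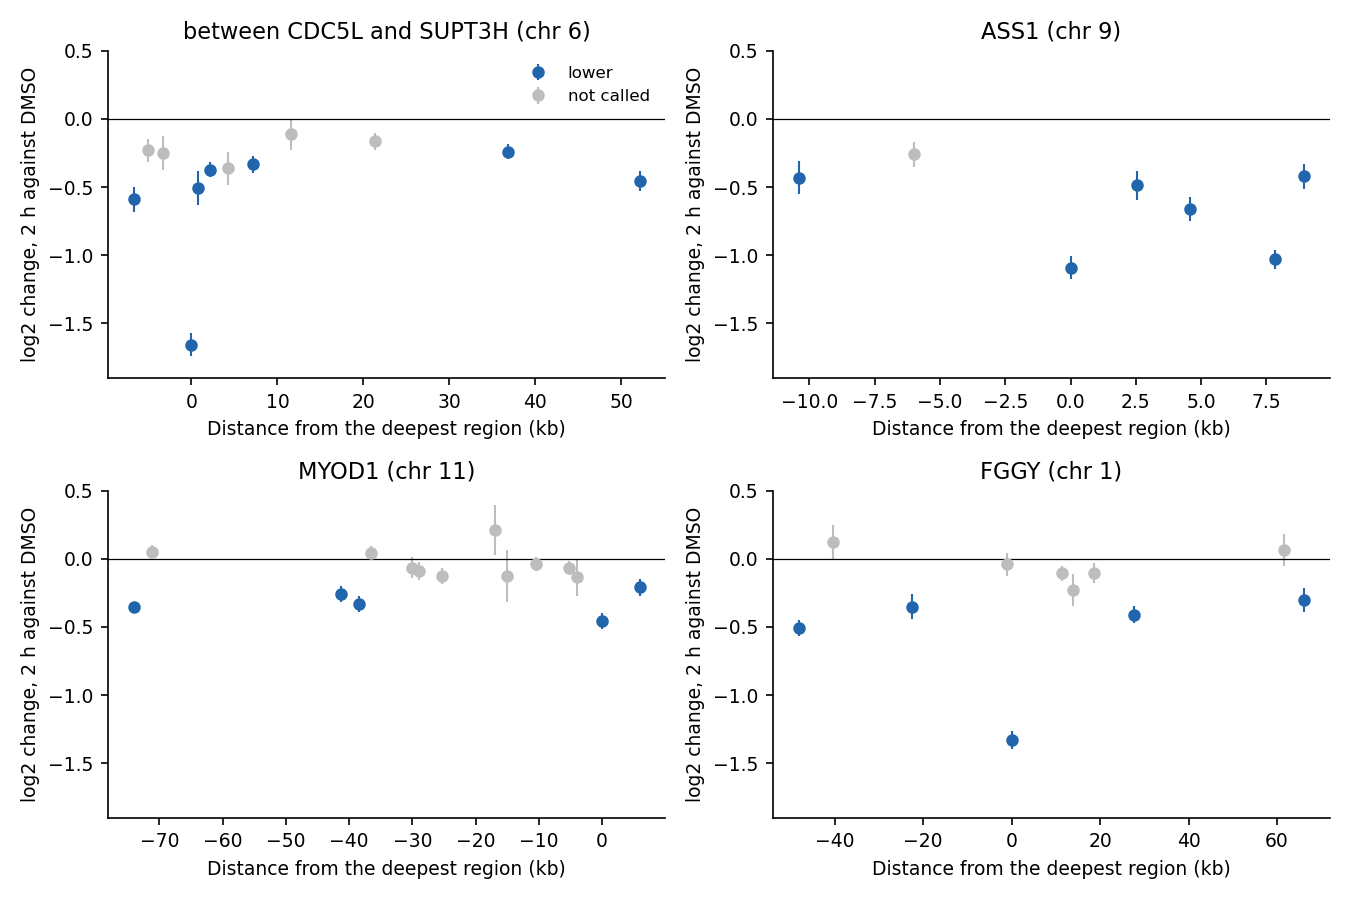
The log2 change at 2 h (points, bars 1 SE) of every tested region is plotted by its distance in kb from the deepest region of 4 stretches. Near CDC5L and SUPT3H and in FGGY 1 region lies far below the rest, ASS1 has 2 such regions, and around MYOD1 no region falls below -0.46.

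The stretches of higher regions were taken down to 4 called regions each. Within LRP1, a lipoprotein receptor gene, 4 of 14 regions were higher (chr12:57526880-57582212), with sums of 138.5 and 136.1 CPM in DMSO, 166.2 and 167.2 CPM at 2 h and 126.8 and 133.8 CPM at 24 h. At CTDSP2, which encodes a small phosphatase acting on RNA polymerase II, 4 of 15 were higher (chr12:58206540-58245225), with sums of 134.5 and 119.0 CPM in DMSO and 159.0 and 146.1 CPM at 2 h. Both lie in the part of chromosome 12 where the DMSO libraries differed, and the part played by that difference was not tested. The sums cover only regions called higher, so separate sums are largely built in and are no further support. Of all regions of the LRP1 stretch paired with 6211, 8 of 10 were called higher there (median log2 0.636). At CTDSP2 it was 6 of 7 (median 0.645), where 1.92% of all pairs were higher. The other stretches lay between ZBTB46 and TPD52L2 on chromosome 20 (4 of 5 regions) and at ALDH4A1 and IFFO2 on chromosome 1 (4 of 11 regions). In these, 0 of 1 and 1 of 6 paired regions were called higher in 6211. No region of these 4 stretches was lower, but only 4.25% of all regions tested were lower, so this also adds little.

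Regions that were not called leaned the same way as the nearest called region when it was close. The 1158 uncalled regions within 5 kb of a lower region had a median of -0.09 on the log2 scale, with 71.7% below 0. From 5 to 20 kb away the median was -0.03, and from 50 to 200 kb 0.01. The 572 uncalled regions within 5 kb of a higher region had a median of 0.08, with 78.7% above 0, and this fell off more slowly, to 0.06 from 5 to 20 kb and 0.04 from 20 to 50 kb. In experiment 6211, whose libraries were not used to find these regions, the matched uncalled regions within 5 kb had medians of -0.07 (589 regions, nearest call lower) and 0.14 (270 regions, nearest call higher). From 5 to 20 kb the 6211 medians were 0.003 near losses and 0.13 near gains. Near gains they were still 0.12 from 20 to 50 kb and 0.09 from 50 to 200 kb, against 0.02 for all pairs. In 6211 the lean near gains was thus not limited to close neighbours.

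Experiment 6211 has its own DMSO and 2 h libraries and so gives separate measurements of the same 2 h treatment. There edgeR called 2009 of 40844 regions lower (4.92%) and 806 higher (1.97%). Regions of both experiments were paired where each covered at least 50% of the other and had no other partner, which left 29639 of the 56945. This rule pairs only regions of similar width, so very narrow or very wide regions could go without a partner whatever their change. Of the regions lower in 6086, 1606 had a partner, and 1598 of these partners had a log2 change below 0. Among the 345 paired regions that were higher in 6086, 328 partners were above 0. Over all pairs, 46.6% were below 0 and 53.4% above.

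Size in 6086 went with recall in 6211 for the losses. Of paired regions that lost under 20% of their DMSO level in 6086, 71 of 214 (33.2%) were called lower in 6211, with a median log2 change of -0.28 there. The share was 471 of 790 (59.6%) for losses of 20% to 33.3% and 454 of 484 (93.8%) for losses of 33.3% to 50%. Of those that lost at least 50%, all 118 were called lower in 6211, with a median of -1.28. Of all paired regions, 5.05% were called lower in 6211. For the gains no such rise was measured: 43 of 157 (27.4%) of those that gained under 25% and 42 of 186 (22.6%) of those that gained 25% to 50% were called higher in 6211, against 1.92% of all pairs. Of the 31 regions that gained 50% to 100%, only 2 had a partner and neither was called.

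Of the 12 deepest losses, 9 had a partner and all 9 were called lower in 6211, with log2 changes from -2.25 to -1.65. The PTPRT region had 25.7 and 18.4 CPM in the DMSO libraries of 6211 and 5.92 and 6.69 CPM in its 2 h libraries (log2 -1.82 ± 0.17, adjusted p = 1.16e-07). The KCNIP1 region had 21.1 and 23.1 CPM in DMSO and 4.99 and 6.29 CPM at 2 h (log2 -1.97 ± 0.16, adjusted p = 3.18e-08). The treated libraries lay far below the controls at both. The MYZAP, PAQR3 to NAA11 and ACSM1 to THUMPD1 regions had no overlapping region in the 6211 table.

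The 6 wide losses had no partner at that overlap, but each was overlapped by 1 or 2 regions of the 6211 table. Such regions may cover only part of a wide region, here and for the wide gains in CPM below. Their changes may therefore not be those of the whole region. The one at SPG7 had a log2 change of -1.13 (adjusted p = 3.18e-08), the one at PREX1 -0.80, the one between KCNS3 and RDH14 -0.85, the one at FGF8 -0.50 (adjusted p = 0.000111) and the one at R3HDM2 -0.25 (adjusted p = 0.00815). Upstream of MYOD1, 1 of 2 such regions was called lower, at -0.28 (adjusted p = 0.0103). Among the gains in CPM, the 6211 region at LAMA5 was higher by 0.45 (adjusted p = 0.00143) and the one in the repeat beside the centromere by 0.49 (adjusted p = 0.0123). The regions at BRF1, VWA1 and PDLIM7 had log2 changes of 0.12, 0.22 and 0.13 in 6211 and were not called (adjusted p = 0.316, 0.0733 and 0.317), so 2 of the 6 were. The segment of chromosome 1 that resembles mitochondrial DNA had a log2 change of -0.26 in 6211 (adjusted p = 0.541), with 307.2 and 492.8 CPM in DMSO and 366.0 and 300.6 CPM at 2 h. None of the 8 largest gains by fold, all narrow, had a partner under the rule. Only the gain at MYO15A was touched by any 6211 region, which had a log2 change of 0.29 (adjusted p = 0.0964).

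**Figure D4:**
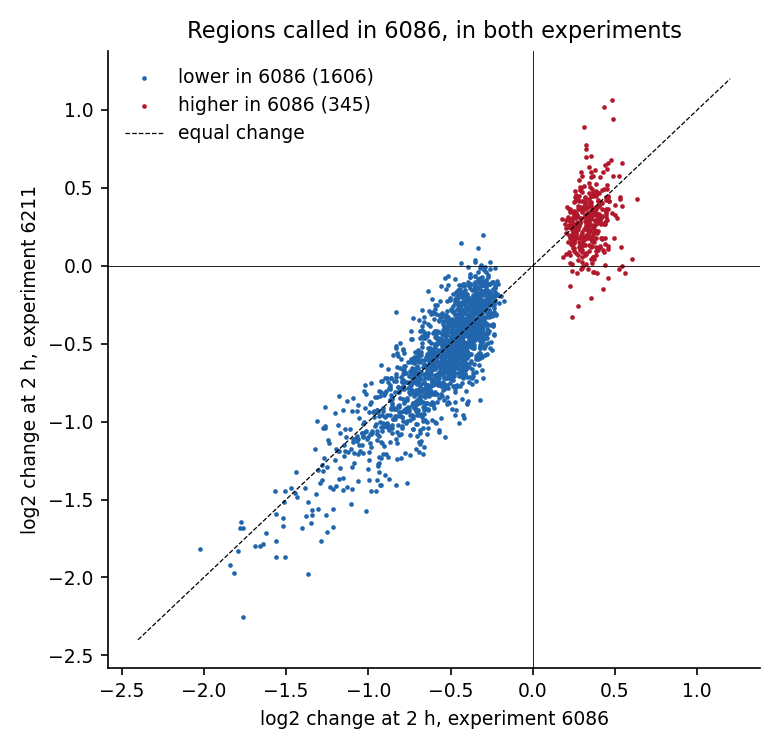
The log2 change at 2 h in experiment 6211 is plotted against that in experiment 6086 for the paired regions that were lower (blue, 1606) or higher (red, 345) in 6086, with a dashed line of equal change. The losses follow the line down to about -2, while the gains form a compact cloud in which 328 of 345 points lie above 0.

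The later libraries of experiment 6086 show the levels of the called regions after 2 h. Comparisons of 4 h and 24 h with DMSO share the DMSO libraries with the 2 h comparison, so levels and the direct tests against 2 h are given. Expressed as a share of each region's DMSO mean, the median of the lower regions was 68.9% and 70.9% in the 2 h libraries, 67.7% and 65.6% in the 4 h libraries and 62.2% and 62.0% in the 24 h libraries. Tested directly, 25 were lower and 1 higher at 4 h than at 2 h, where over all regions 0.0773% were lower and 0.00351% higher. At 24 h 955 of the 2418 were lower than at 2 h and 302 were higher, where over all regions 17.6% were lower and 12.8% higher. The number that was higher again is near the share of all regions.

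For the 557 higher regions the median share of the DMSO mean was 126.6% and 125.8% at 2 h, 118.3% and 117.9% at 4 h and 110.5% and 112.8% at 24 h. Only 4 were called lower and 0 higher at 4 h than at 2 h. At 24 h 253 were lower than at 2 h and 76 were higher, the latter again near the share of all regions. Whether gains and losses differ in how long they last was not tested. Because the regions were chosen for being high in the 2 h libraries, some fall from that level is built into this comparison, as some rise is for the losses.

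**Figure D5:**
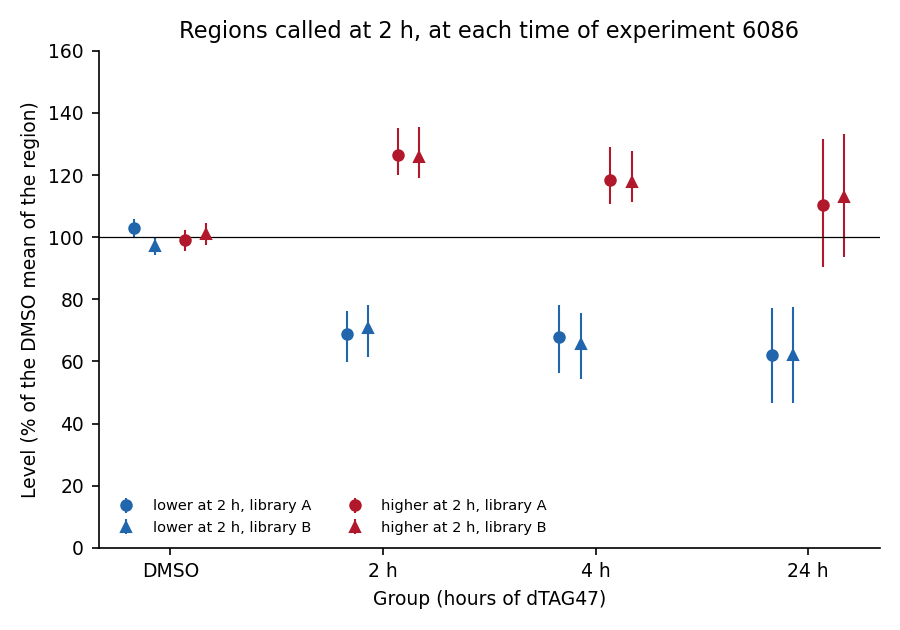
The level of the regions called at 2 h is shown in each library of experiment 6086 as a percentage of the region's DMSO mean, with the median (circle for library A, triangle for library B) and the range from the 25th to the 75th percentile. Losses (blue) stay near 70% and then near 62%, while the medians of the gains (red) go from about 126% at 2 h toward 111% at 24 h.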

How the data were processed

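The authors deposited a table of raw read counts over regions called for the whole experiment. Per the submitters' processing notes, the tools included Genrich 0.6.1, Trimmomatic 0.32, DiffBind, deepTools, Bowtie2 and DESeq2, and the builds were dm3 and hg19. The sources used here do not give read shifting, duplicate removal or the role of dm3. The authors' deposited comparison table gave log2 fold changes and adjusted p-values, per the file headers, and was used only for comparison.

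Libraries were grouped by treatment and time in their column names. Nothing ties the column letters A and B to the labels' replicate numbers. Counts were fitted with edgeR 4.0.16 in R 4.3.3 (TMM, filterByExpr, quasi-likelihood test, group means, all 8 libraries of an experiment, 4 residual degrees of freedom), so the spread was estimated over all groups. The filter left 56945 regions in 6086 and 40844 in 6211, and p-values were adjusted over all of them. Libraries of 6086 held 18038062 to 31308682 reads in regions. TMM would not show a uniform change of all regions. Replicate pairs of 6086 differed by more than sampling noise, with a chi-square per degree of freedom of 1.34 to 1.96. The scripts were tested on simulated data. Regions were paired with bedtools 2.31.1, and tables were made with Python 3.11.15 and pandas 2.3.3.

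Regions were named among calls whose mean count reached 30 and whose 2 h libraries both lay on 1 side of both DMSO libraries: the 12 lowest and 8 highest log2 changes, the 6 largest losses and gains in CPM, and the stretches with the most calls. Ties at 5 lower and 4 higher regions were all kept. The rule and the lists were chosen with earlier results of these data known. Gene lists and sequence motifs were not used, because no hg19 genome or annotation was used here. Alternatives were DESeq2 1.42.0, other scalings, a loess offset (limma 3.58.1), no filter, a replicate block, a fit of 4 libraries, an adjusted p under 0.01, other gaps and overlaps, and leaving out each library.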

Additional observations from a re-analysis of the deposited data

How the results depend on the processing

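The count of lower regions (2418) stayed within 1.5 times under library-size scaling (2264), median-ratio factors (2352), a loess offset (2411), no filter (2418), an adjusted p under 0.01 (1719) and a fit of only the 4 DMSO and 2 h libraries (2205), and was 1328 with DESeq2. Leaving out 1 library gave 1410 to 2761. The count of higher regions (557) was 70 with DESeq2, 322 in the fit of 4 libraries, 147 at an adjusted p under 0.01 and 150 to 941 with 1 library left out. The letters A and B may be only names. With a replicate block on them, 2300 regions were lower and 461 higher. Deviations of same-letter DMSO and 2 h libraries correlated at -0.137 across regions, and the crossed replicate block, added after seeing the data, gave 2631 and 731. Leaving out 57 to 59 Mb of chromosome 12 was also added then. Pairs lower in both experiments (1114) ranged from 742 (without 6211 DMSO library A) to 1110 with 1 library of 6211 left out, and were 1339 with any overlap and 822 with DESeq2. Pairs higher in both (85) ranged from 20 to 94 in that way, and were 24 with DESeq2 and 120 with any overlap. The causes of these shifts were not tested. With gaps of 20 or 100 kb, stretches of at least 3 numbered 33 or 119 for lower and 5 or 16 for higher regions. Among the named regions, all 144 alternative values of the 12 deepest losses and all 72 of the 6 wide losses kept their call. Calls were lost in 20 of 96 for the 8 gains by fold and 17 of 72 for the 6 gains in CPM, and no direction reversed. With 1 library left in a group, its spread is taken from the other groups.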
